A study of Homo sapiens with 4 samples.

Results

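SRF, the serum response factor, and 9 genes of the actin cytoskeleton (ACTB, ACTG1, VCL, TPM1, TPM4, MYL9, FLNA, MYH9 and ZYX) were followed in newly made RNA. They were chosen by name, as a transcription factor and well-known genes of its actin program, with earlier results of these data known. They are 10 of the 19901 protein-coding genes counted. The RNA came from HCT116 cells, a human colon cancer line, of the genotype KAP1_dTAG_CloneD5, in which the KAP1 protein carries a degron tag. Every library is from this 1 clone, and no untagged line was compared. The DMSO group received the vehicle and the dTAG group received dTAG-13 at 500 nM, each for 8 h in medium with serum and without serum starvation or restimulation. In both groups 4-thiouridine (4sU) was present at 500 μM for the last 10 min, and the RNA that took it up was purified and sequenced (TT-Seq). Several dishes were combined into each sample, and each group had 2 libraries, so that a p-value measures only the spread between 4 samples. The question asked of the comparison was whether acute loss of KAP1 changes nascent transcription in unstimulated cells.

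SRF binds a short A/T-rich element, the CArG box, in the promoters of a pair of broad gene sets. With the myocardin-related factors MRTFA and MRTFB, which are held by monomeric actin and released when actin polymerizes, it drives genes of actin filaments, actomyosin contraction and focal adhesions. With ternary complex factors of the ELK family, which respond to MAP kinase signaling, it drives immediate early genes. SRF and many actin genes are themselves known targets, so that actin feeds back on its own transcription.

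VCL and TPM4 were the members that passed the test, and both were higher with dTAG. VCL encodes vinculin, which couples integrin adhesions and cadherin junctions to actin, and it was transcribed 1.40-fold higher. TPM4, a tropomyosin that lies along actin filaments, was 1.23-fold higher. No member was lower by the test, and no 95% interval lay wholly below 0, beside 3.66% of all tested genes that passed as lower. These 2 of 10 genes stand beside 7.10% of the 12612 genes tested that passed in either direction (an adjusted p under 0.05, edgeR quasi-likelihood test) and 3.44% that passed as higher. The median log2 fold change of the 10 genes was 0.021, against -0.015 over all tested genes, and 6 of the 10 were above 0. In 3 of the 10 both dTAG libraries lay above both DMSO libraries, beside 28.1% of all tested genes. In 1 of the 10 they lay below, beside 30.7% of all tested genes.

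**Figure D1:**
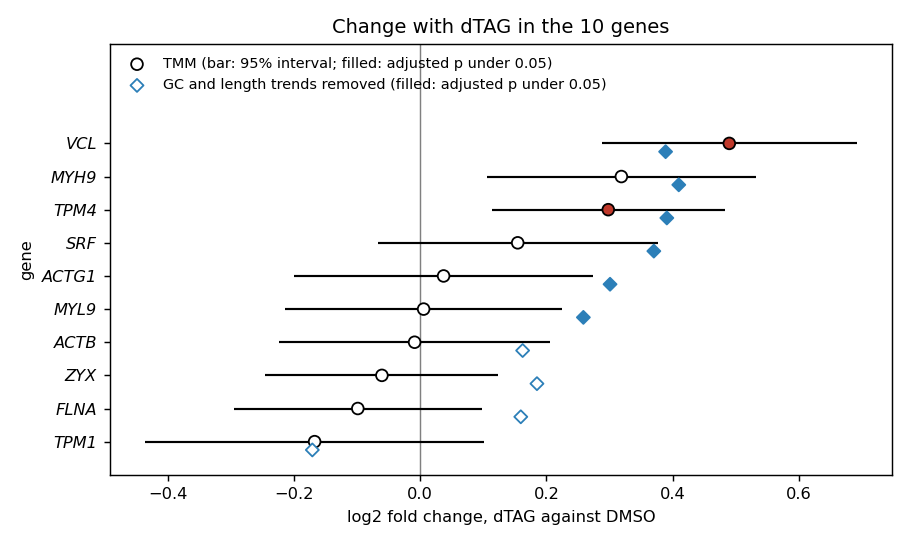
Log2 fold changes of the 10 genes, dTAG against DMSO, with bars for the 95% interval of the edgeR quasi-likelihood fit (n = 2 libraries per group) and separate marks for the values with GC and length trends removed. The intervals of VCL, TPM4 and MYH9 lie above 0, and only VCL and TPM4 pass after adjustment over 12612 genes.

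Promoter sequence is shown for the members with a CArG box, because the box is the element that SRF binds. RefSeq promoter windows on GRCh38.p14 were found for 8 of the 10 genes, ACTB and MYL9 being the others, and the 250 bases before each start were searched, 11 windows in all. The box was taken as CC, a run of 6 A or T, and GG, which reads alike in form on both strands. It occurred in 4 of the 11 windows, each of a different gene, and in 407 of the 35116 windows of all genes (1.16%). The members were chosen as known genes of the SRF program, so that no conclusion is drawn from this difference. Other forms of the box and sequence outside these windows were not searched. In the lines that follow, capitals mark the CArG box and each sequence reads 5′ to 3′ on the strand of its gene.
SRF, chr6:43171189-43171268, plus strand: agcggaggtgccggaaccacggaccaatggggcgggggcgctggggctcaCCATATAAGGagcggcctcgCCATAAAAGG
ACTG1, chr17:81512852-81512943, minus strand: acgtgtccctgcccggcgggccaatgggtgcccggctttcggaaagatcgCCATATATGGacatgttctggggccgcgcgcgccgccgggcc
FLNA, chrX:154374669-154374778, minus strand: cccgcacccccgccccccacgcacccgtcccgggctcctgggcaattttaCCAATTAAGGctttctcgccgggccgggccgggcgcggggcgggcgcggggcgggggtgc
TPM4, chr19:16067315-16067424, plus strand: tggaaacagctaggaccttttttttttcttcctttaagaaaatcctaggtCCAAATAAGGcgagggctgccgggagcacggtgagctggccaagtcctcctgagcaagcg
SRF carries 2 boxes that end 21 bases and 1 base before the RefSeq start. The boxes of ACTG1 and FLNA both span 94 to 85 bases before the start, and that of TPM4 spans 173 to 164. The stretches of SRF and FLNA lie upstream of the counted gene, and those of ACTG1 and TPM4 lie inside the counted gene and outside annotated exons. Of the 4 genes with a box, TPM4 passed the test and SRF, ACTG1 and FLNA did not, while VCL passed with no box in its window. The AP-1 site TGANTCA, which reads the same on both strands, was in none of the 11 windows (6.57% of all windows), and the TEAD site GGAATG, searched on both strands, was in those of VCL and MYH9 (11.9% of all windows).

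SRF itself (ENSG00000112658.7, hg38 chr6:43171298-43181507) had 24.5 and 27.5 CPM (read counts per 1e6 of the TMM-scaled library size) in the DMSO libraries and 30.6 and 27.3 CPM in the dTAG libraries. The second libraries of the groups were nearly level, and the groups overlapped. The log2 fold change was 0.15 with a standard error (SE) of 0.11 and did not pass (adjusted p = 0.36, edgeR quasi-likelihood test). Its 95% interval ran from -0.07 to 0.38.

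The cytoplasmic actins make up the filaments of nonmuscle cells, and neither moved beyond the spread of the replicates. ACTB (ENSG00000075624.14, chr7:5527146-5563784), which encodes beta-actin, had 603 and 575 CPM with DMSO and 622 and 549 CPM with dTAG. The dTAG libraries enclosed both DMSO libraries. Its log2 fold change was -0.0088 (SE 0.10, adjusted p = 0.96, edgeR quasi-likelihood test), with an interval from -0.22 to 0.21. ACTG1 (ENSG00000184009.10, chr17:81509970-81523847), which encodes gamma-actin, had 1032 and 933 CPM with DMSO and 1084 and 932 CPM with dTAG. Here too the dTAG libraries enclosed the DMSO libraries, and the log2 fold change was 0.037 (SE 0.11, adjusted p = 0.86, edgeR quasi-likelihood test), with an interval from -0.20 to 0.27. Both actins have near-identical copies and processed pseudogenes elsewhere in the genome, and how the counting assigned reads shared with them is not given in the sources used here.

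The tropomyosins TPM1 and TPM4 stabilize actin filaments and set which myosins and severing proteins reach them. TPM4 (ENSG00000167460.15, chr19:16067020-16103005) had 207 and 215 CPM with DMSO and 265 and 253 CPM with dTAG. Both dTAG libraries lay above both DMSO libraries. The log2 fold change was 0.30 (SE 0.089, 95% interval 0.11 to 0.48, adjusted p = 0.047, edgeR quasi-likelihood test). The alternatives passed very different shares of all tested genes as higher, such as 1.28% with the replicate block and 12.6% with the replicate numbers crossed. In the edgeR quasi-likelihood test the adjusted p of TPM4 was 2.8e-07 with the ERCC factor, where 6.32% of all tested genes were higher. With ERCC totals, where no gene passed, it was 0.47. The call of TPM4 sat close to the threshold and held in 10 of 16 alternatives. It was lost without dTAG replicate 1 (0.27, adjusted p = 0.58) and without dTAG replicate 2 (0.33, adjusted p = 0.87). TPM1 (ENSG00000140416.20, chr15:63042631-63071915) had 13.3 and 14.5 CPM with DMSO and 13.2 and 11.5 CPM with dTAG. Both dTAG libraries lay below both DMSO libraries, the first by very little. The log2 fold change of -0.17 did not pass (SE 0.13, interval -0.44 to 0.10, adjusted p = 0.41, edgeR quasi-likelihood test).

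MYH9 and MYL9 encode the heavy chain of nonmuscle myosin IIA and a regulatory light chain of myosin II. MYH9 (ENSG00000100345.21, chr22:36281276-36388067) had 548 and 597 CPM with DMSO and 738 and 691 CPM with dTAG. The groups did not overlap, and the log2 fold change was 0.32, a fold of 1.25 (SE 0.10, interval 0.11 to 0.53). It missed the threshold (adjusted p = 0.061, edgeR quasi-likelihood test). In 8 of 16 alternatives it passed, and these again differ in the share of all genes they pass. By the same test its adjusted p was 5.8e-10 with the ERCC factor, where 6.32% of all tested genes were higher. With ERCC totals, where no gene passed, it was 0.47. MYL9 (ENSG00000101335.9, chr20:36541483-36551447) had 25.7 and 27.1 CPM with DMSO and 28.1 and 24.8 CPM with dTAG. Its groups overlapped fully, with a log2 fold change of 0.0056 (SE 0.11, interval -0.21 to 0.23, adjusted p = 0.98, edgeR quasi-likelihood test). MYL9 is close in sequence to MYL12A and MYL12B, so that its count is less certain.

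VCL, ZYX and FLNA link the filaments to adhesions and to each other. VCL (ENSG00000035403.17, chr10:73995192-74121363) had 245 and 213 CPM with DMSO and 337 and 307 CPM with dTAG, a mean of 229 ± 22.9 against 322 ± 20.6 (SD, n = 2). Both dTAG libraries were above both DMSO libraries, and the log2 fold change was 0.49 (SE 0.097, 95% interval 0.29 to 0.69, adjusted p = 0.0042, edgeR quasi-likelihood test). That placed it at the 98.9th percentile of the fold changes of all tested genes. In the edgeR quasi-likelihood test its adjusted p was 1.9e-08 with the replicate numbers crossed, where 12.6% of all tested genes passed as higher. With the replicate block, where 1.28% did, it was 0.024. VCL passed in 12 of 15 alternatives, which differ widely in the share of all genes they pass. It was lost without dTAG replicate 1 (log2 fold change 0.43, adjusted p = 0.33), without dTAG replicate 2 (0.55, adjusted p = 0.19) and with ERCC totals as library sizes. VCL shares 1110 bases, 0.880% of its length, with AP3M1 on the opposite strand, and AP3M1 had a log2 fold change of 0.092 (SE 0.085, adjusted p = 0.50, edgeR quasi-likelihood test).

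ZYX (ENSG00000159840.15, chr7:143381079-143391111) encodes zyxin, an adhesion protein that moves to strained actin fibers. It had 59.4 CPM in both DMSO libraries and 60.4 and 53.5 CPM with dTAG. The dTAG libraries lay on either side of the DMSO values, and the log2 fold change was -0.061 (SE 0.089, interval -0.25 to 0.12, adjusted p = 0.69, edgeR quasi-likelihood test). ZYX overlaps EPHA1 on the opposite strand over 824 bases, 8.21% of its length. FLNA (ENSG00000196924.15, chrX:154348523-154374638) encodes filamin A, which crosslinks filaments into networks. It had 235 and 227 CPM with DMSO and 233 and 198 CPM with dTAG, so that the groups overlapped. The log2 fold change was -0.099 (SE 0.095, interval -0.30 to 0.098, adjusted p = 0.52, edgeR quasi-likelihood test).

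**Figure D2:**
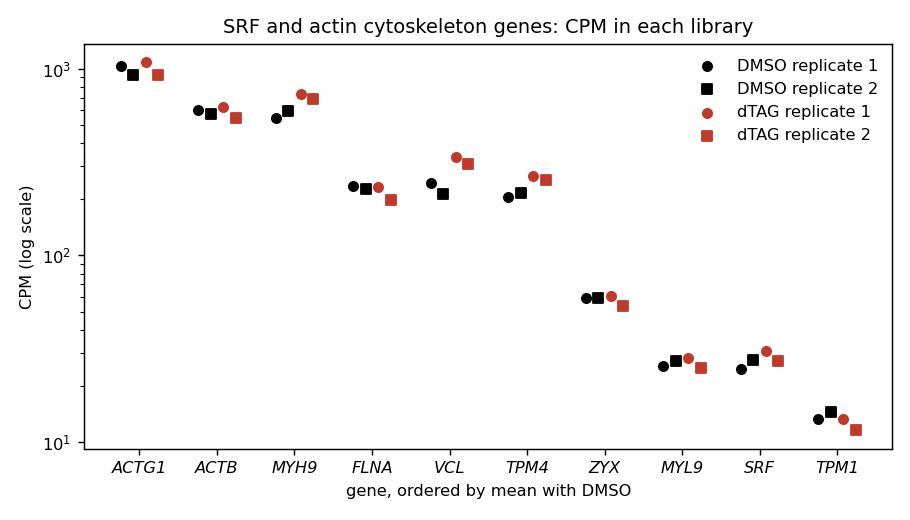
TMM-scaled CPM of the 10 genes in each of the 4 libraries, on a log axis, with DMSO and dTAG replicates as separate points. The dTAG points of VCL, TPM4 and MYH9 lie above both DMSO points, those of TPM1 lie below, and the groups overlap in the other 6 genes.

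Levels in unstimulated cells ranged widely between the members. Per kilobase of the whole counted gene, ACTG1 was highest, at 74.3 and 67.2 CPM per kb in the DMSO libraries, and ACTB followed at 16.5 and 15.7. The counted gene spans 13878 bases for ACTG1 and 36639 for ACTB, against exon lengths of 4052 and 4405. The gap between the actins thus depends on the length used. FLNA had 8.998 and 8.68 CPM per kb, and ZYX (5.92 in both), TPM4 (5.74 and 5.98) and MYH9 (5.13 and 5.59) came next. The values of ZYX lay between those of TPM4. MYL9 (2.58 and 2.71 CPM per kb) and SRF (2.40 and 2.69) overlapped as well, VCL had 1.95 and 1.69, and TPM1 was lowest at 0.455 and 0.495. These levels put ACTG1 at the 99.5th percentile of tested genes, SRF at the 77.6th and TPM1 at the 29.0th, with a median over the 10 genes at the 92.0th. Divided by exon length in place of gene length, the mean DMSO level of ACTG1 was 242 CPM per kb and that of TPM1 0.947, again the highest and the lowest. ACTB had 134, and MYH9 (33.6) and VCL (22.9) came next after the actins.

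A ratio of the counts of 2 genes within a library does not depend on how libraries are scaled, and 5 pairs were compared in this way. It can still carry trends on GC content and gene length, as VCL had 41.5% GC and ZYX 58.3%. With these trends removed, log2 fold changes lay closer together for VCL (0.39) and ZYX (0.19), MYH9 (0.41) and MYL9 (0.26), and FLNA (0.16) and MYH9. They lay further apart for TPM1 (-0.17) and TPM4 (0.39), and for ACTB (0.16) and ACTG1 (0.30). VCL per ZYX was 4.13 and 3.59 with DMSO and 5.57 and 5.74 with dTAG, a difference of 0.56 on the log2 scale with a pooled SD of 0.10. TPM1 per TPM4 was 0.0645 and 0.0675 with DMSO and 0.04995 and 0.0455 with dTAG, a log2 difference of -0.47 (pooled SD 0.075). For each of these pairs both dTAG libraries lay apart from both DMSO libraries.

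MYH9 per MYL9 went from 21.4 and 22.1 to 26.3 and 27.8, a log2 difference of 0.32 (pooled SD 0.049). FLNA per MYH9 went from 0.429 and 0.380 to 0.316 and 0.287, a log2 difference of -0.42 (pooled SD 0.11). ACTB per ACTG1 was 0.584 and 0.617 with DMSO and 0.574 and 0.589 with dTAG, and these overlapped (log2 difference -0.046, pooled SD 0.043). The groups were thus separate for 4 of the 5 ratios. Each of these pairs holds VCL, TPM4 or MYH9, whose own dTAG libraries lay above both DMSO libraries. The ratios are therefore no separate support for a change in those genes, and no other gene pairs were compared. With 2 against 2 libraries an exact two-sided permutation p cannot go below 0.333. That was the p of the 4 separate ratios, and it was 0.667 for ACTB per ACTG1.

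**Figure D3:**
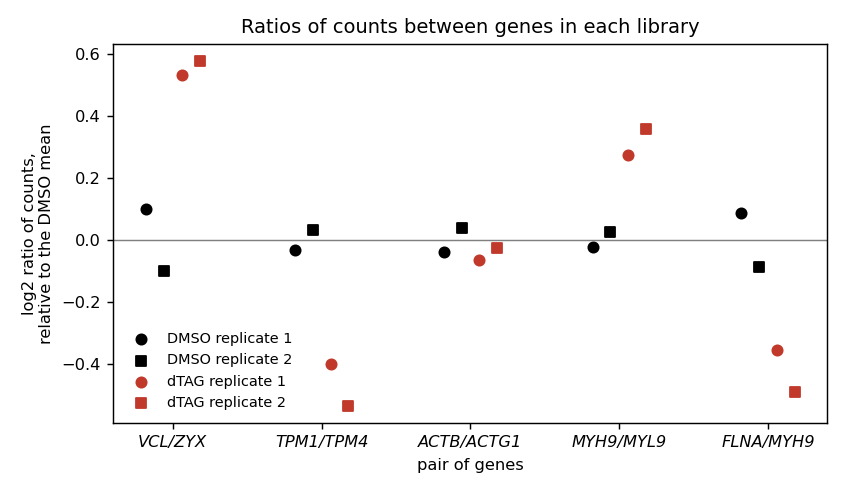
Ratios of counts of 5 gene pairs in each library, as log2 values relative to the DMSO mean of the pair, with DMSO and dTAG libraries as separate points. The dTAG points lie apart from the DMSO points for every pair but ACTB per ACTG1.

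The members differ in base composition, and composition moved with the fold change across genes. Over the 12612 tested genes the log2 fold change had a Spearman correlation of -0.56 with the GC content of the gene and 0.42 with its length, where genes share the same 4 libraries and are not replicates. The median GC content of the 10 genes was 56.2%, against 44.9% over all tested genes. VCL had 41.5% GC over 126172 bases, the lowest GC content of the 10 and the longest gene, and FLNA had the highest GC content, 62.3% over 26116 bases. When each library's trend on GC content and then on length was removed, VCL stayed higher with dTAG (0.39, adjusted p = 3.0e-04, edgeR quasi-likelihood test), as did TPM4 (0.39, adjusted p = 5.2e-05).

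With the trends removed, 4 more members passed as higher. They were MYH9 (log2 fold change 0.41, adjusted p = 2.2e-05, edgeR quasi-likelihood test), SRF (0.37, adjusted p = 0.0020), ACTG1 (0.30, adjusted p = 0.036) and MYL9 (0.26, adjusted p = 0.027). Over all 16 alternatives SRF passed in 2 (adjusted p from 0.0020 to 0.95), and ACTG1 and MYL9 passed in 1 each. ACTB, FLNA, ZYX and TPM1 passed in none. These 6 of 10 stand beside 10.6% of all tested genes that passed as higher after this step, and no member was lower, against 7.46% of all. The median of the 10 was 0.28. Between replicates of a group the same kind of trend was present. The log ratio of replicate 2 over replicate 1 had a Spearman correlation with GC content of 0.75 for DMSO and -0.43 for dTAG. Whether the trend between the groups came from the treatment or from the libraries was not tested.

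**Figure D4:**
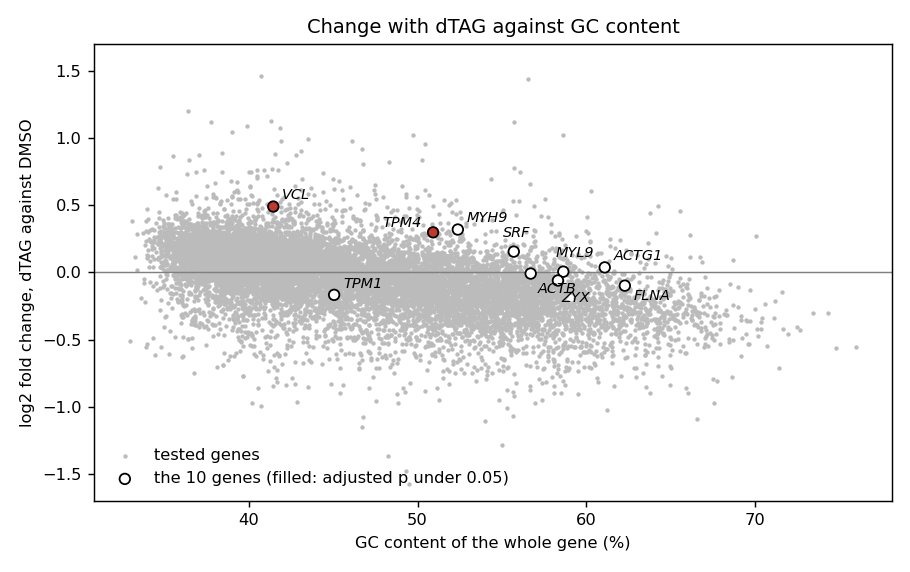
Log2 fold change, dTAG against DMSO, against the GC content of the whole gene in percent for the tested genes (gray) and the 10 genes (circles, filled where the adjusted p is under 0.05). Fold changes decline with GC content (Spearman -0.56), and VCL has the lowest GC content of the 10 genes and FLNA the highest.

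The proteins that work with SRF were read from a list of 8 genes, 7 of them tested. Of the 7, 2 passed as higher and 0 as lower, beside 3.44% and 3.66% of all tested genes. The list median was 0.10. ELK3, a ternary complex factor, had 114 and 116 CPM with DMSO and 152 and 145 CPM with dTAG, and rose by 0.37 on the log2 scale (SE 0.083, adjusted p = 0.011, edgeR quasi-likelihood test). FHL2, a LIM protein that binds SRF, had 174 and 182 CPM with DMSO and 254 and 239 CPM with dTAG, and rose by 0.47 (SE 0.088, adjusted p = 0.0029). The MRTF genes and the other ternary complex factors did not pass. MRTFA had a log2 fold change of 0.070 (SE 0.095, adjusted p = 0.66), MRTFB 0.074 (SE 0.097, adjusted p = 0.65), ELK1 0.085 (SE 0.098, adjusted p = 0.60) and ELK4 0.13 (SE 0.090, adjusted p = 0.34). MYOCD, the myocardin of heart and smooth muscle, had 12 and 24 counts with DMSO and 15 and 6 with dTAG and was not tested.

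Among 20 other genes of filaments and myosin, 16 were tested, of which 3 rose and 1 fell, with a median of 0.028, beside 3.44% of all tested genes that were higher and 3.66% that were lower. MYL12B (0.41, SE 0.091, adjusted p = 0.011, edgeR quasi-likelihood test) and MYL12A (0.33, SE 0.087, adjusted p = 0.026), which encode near-identical light chains of nonmuscle myosin II, and CALD1 (0.30, SE 0.087, adjusted p = 0.040), which encodes the filament protein caldesmon, were higher. ACTA2, the smooth muscle alpha-actin, had 6.40 and 6.70 CPM with DMSO and 4.21 and 4.3998 CPM with dTAG, and fell by 0.60 on the log2 scale (SE 0.16, adjusted p = 0.030). ACTA2 overlaps STAMBPL1 and FAS on the opposite strand, and without strand information reads of these genes cannot be told apart. The muscle actin genes ACTA1, ACTC1 and ACTG2 had at most 13 counts in any library.

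Of 20 adhesion and crosslinker genes, all tested, LIMA1, a LIM protein that bundles filaments (0.43, SE 0.082, adjusted p = 0.0033, edgeR quasi-likelihood test), and PARVA, a partner of integrin-linked kinase (0.39, SE 0.083, adjusted p = 0.0068), were higher and none was lower. These 2 of 20 stand beside 3.44% higher over all tested genes, and the median of this list was 0.078. Of 25 genes of filament assembly and severing, 24 were tested and the formin genes DIAPH3 (0.41, SE 0.11, adjusted p = 0.022) and DIAPH2 (0.37, SE 0.11, adjusted p = 0.039) were higher, 2 of 24 beside the same 3.44%, with a list median of 0.058. ARPC1A was at 0 in every library and shares its interval with a readthrough gene on the same strand.

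Of 11 genes listed as immediate early genes with serum response elements, 10 were tested and 3 were higher, beside 3.44% of all tested genes, with a median of 0.42. These were EGR1 (1.44, SE 0.16, adjusted p = 1.9e-05, edgeR quasi-likelihood test), CCN1 (0.84, SE 0.12, adjusted p = 1.4e-04) and NR4A1 (0.53, SE 0.13, adjusted p = 0.017). Across these 5 lists 12 of 77 tested genes passed as higher and 1 as lower, beside 3.44% and 3.66% of all tested genes. The lists were chosen with earlier results of these data known, so that no conclusion is drawn from these shares. Without dTAG replicate 1, and likewise without dTAG replicate 2, 2 passed as higher and 0 as lower in the edgeR quasi-likelihood test. Of all tested genes 0.523% were then higher without dTAG replicate 1 and 0.381% without dTAG replicate 2. Without DMSO replicate 1 the list counts were 32 and 8, while 22.2% of all tested genes were higher and 21.4% lower, so that the list counts moved with those of the whole table.

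**Figure D5:**
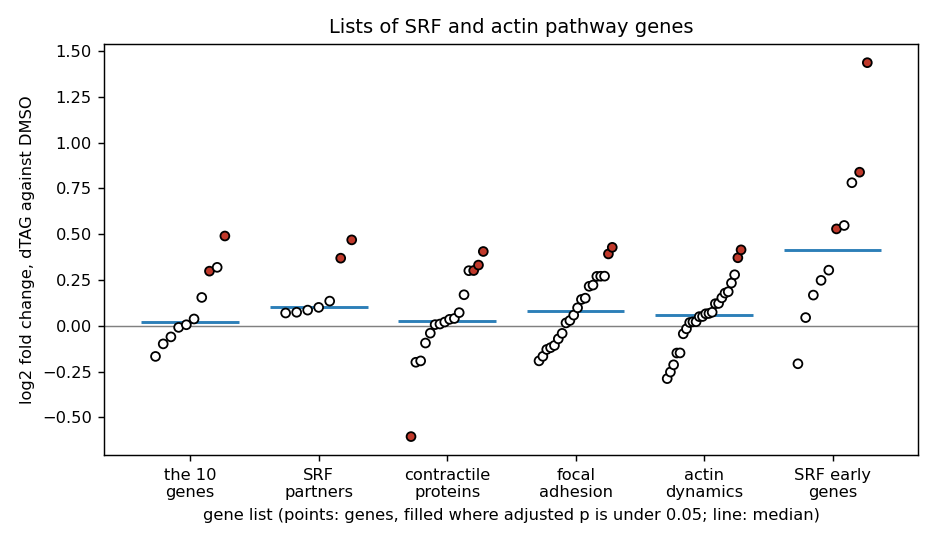
Log2 fold changes, dTAG against DMSO, of the tested genes in each list, with the genes past the threshold filled and a line at each list's median. Medians run from 0.021 for SRF and the actin cytoskeleton genes to 0.42 for the immediate early genes.

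The libraries held 93105627 to 102314741 gene counts, and markers matched the label of an epithelial line. The 6 epithelial markers, none of them particular to colon, summed to between 1096 and 1216 CPM per library, while 5 blood markers summed to between 3.38 and 4.16, 6 fibroblast markers to between 5.20 and 5.91 with COL1A2 and LUM at 0, and 6 smooth muscle markers to between 6.79 and 9.15. The smooth muscle sum was lower in both dTAG libraries. ACTA2 made up most of it, while MYH11 (log2 fold change 0.035) and SYNPO2 (0.061) did not pass and DES, CNN1 and LMOD1 were under 50 counts. TRIM28, the gene of KAP1, had 61.7 and 69.8 CPM with DMSO and 53.5 and 47.9 CPM with dTAG (log2 fold change -0.37, SE 0.092, adjusted p = 0.019, edgeR quasi-likelihood test). With GC and length trends removed the value was -0.10 (adjusted p = 0.17), and the call was lost. Since dTAG-13 acts on the protein, these values do not check the depletion. In bulk RNA, a change in the share of cells that transcribe a gene and a change per cell cannot be told apart.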

How the data were processed

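TT-Seq was performed on HCT116 KAP1dTAG cells treated with DMSO or dTAG-13. After trimming (Trim Galore 0.6.4) and STAR mapping to hg38, the authors used featureCounts (Subread 1.6.3) to count reads across whole protein-coding genes and spiked-in ERCC RNAs, and they deposited the raw counts, not normalized. How strand and overlapping genes were treated is not given in the sources used here. Their spike-in normalization used EDASeq, RUVSeq and edgeR 3.40.1 and was not applied to the deposited counts. Their test was a likelihood ratio test, so that the TMM scaling and quasi-likelihood test used here differ from theirs in both steps.

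Counts were analyzed with edgeR 4.0.16 in R 4.3.3, with DESeq2 1.42.0 as an alternative, and tables were handled in Python 3.11.15. A gene was tested if every library had 50 or more counts of it, which held for 12612 of 19901 genes and for all 10 members. Counts were scaled by TMM, the two-sided quasi-likelihood test was used, and p-values were adjusted over the tested genes after Benjamini-Hochberg, with a threshold of 0.05. CPM use TMM-scaled library sizes, and the SE is the log2 fold change over the square root of F. Counts of a gene carry more than counting error, so that replicate spread limits precision. The scripts were tested on simulated data. Of the genes, 19802 had a symbol. Promoter windows came from RefSeq, and GC content and overlaps from hg38 and GENCODE.

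The members and lists were chosen with earlier results of these data known, and list counts carry no test of their own. A further list is not reported here. Named genes were the 10 members, MRTFA, MRTFB and the ELK genes, and in each other list at most 4 genes per direction past the threshold. Alternatives were other scalings (upper-quartile, RLE, ERCC totals, and 1 factor from the 14 ERCC RNAs that passed the filter), other tests and filters, a replicate block, removal of GC and length trends by lowess with a span of 0.3, genes without overlaps, and each library left out.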

Additional observations from a re-analysis of the deposited data

How the results depend on the processing

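Of the members, 2 were higher with dTAG by the quasi-likelihood test with TMM. The number was 1 with upper-quartile scaling and 1 with a minimum of 500 counts. It was also 1 among genes without overlaps, where VCL and ZYX were not tested. With DESeq2, with the likelihood ratio test and without a count filter it was 3, as MYH9 passed too. It was 0 with ERCC totals, 4 with the ERCC factor and 6 with GC and length trends removed. Leaving out 1 library gave 0 to 3. Of all tested genes, 3.44% were higher with TMM, 2.02% with upper-quartile scaling, 2.71% with a minimum of 500 counts and 3.67% without overlaps. The share higher was 5.70% with DESeq2, 5.78% with the likelihood ratio test and 3.86% without a count filter. It was 6.32% with the ERCC factor and 10.6% with the trends removed. With ERCC totals no gene of the table passed the edgeR quasi-likelihood test (229 had an unadjusted p under 0.05). All 10 members then had positive values, as the median of all genes shifted to 0.63. For the pathway lists, 12 were higher and 1 lower. The number higher was 0 with ERCC totals, 21 with the ERCC factor, 28 with the trends removed, and 2 to 32 with 1 library left out. The number lower was 2 with DESeq2, 3 with upper-quartile scaling, 0 with ERCC totals, 2 with the ERCC factor, 3 with the likelihood ratio test, 2 without a count filter, 3 with the trends removed, 0 without overlapping genes, and 0 to 8 with 1 library left out. The share lower over all tested genes was 3.66% with TMM, 4.80% with DESeq2, 6.89% with upper-quartile scaling and 4.16% with the ERCC factor. It was 6.85% with the likelihood ratio test, 4.26% without a count filter, 7.46% with the trends removed and 4.08% without overlapping genes. The cause of these changes was not tested, and where libraries or genes were left out the fit also had fewer of them.

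Replicate numbers are shared between the groups, but no source says that a number marks a shared culture or day, and deviations of same-numbered libraries correlated at -0.24. With the replicate block, 1 member (VCL) was higher, and 6 pathway genes were higher and 0 lower. Of all tested genes 1.28% were then higher and 1.41% lower. With the numbers crossed, a pairing chosen after seeing the data, 3 members were higher, and 22 pathway genes were higher and 5 lower. Of all tested genes 12.6% were then higher and 12.7% lower, so that these counts moved with those of the whole table.

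Values near 0 changed sign. ACTB was 0.0029 with DESeq2, 0.0029 with RLE scaling, 0.62 with ERCC totals and 0.16 with the trends removed. ACTG1 was -0.035 with upper-quartile scaling and -0.00057 with the ERCC factor. MYL9 was -0.068 with upper-quartile scaling, -0.017 with a minimum of 500 counts and -0.0048 without overlapping genes. FLNA was 0.52 and ZYX 0.57 with ERCC totals, and 0.16 and 0.19 with the trends removed. With ERCC totals TPM1 was 0.48 and ACTA2, a called gene otherwise, was 0.054. MRTFA was -0.0030 with upper-quartile scaling, and with the ERCC factor MRTFA was -0.071, MRTFB -0.12 and ELK4 -0.024. MRTFB was -0.063 with the trends removed. With 1 library left out, ACTB ranged from -0.099 to 0.079, ACTG1 from -0.073 to 0.14, MYL9 from -0.084 to 0.092, FLNA from -0.22 to 0.012 and ZYX from -0.15 to 0.024, and MRTFB was -0.032 without DMSO replicate 2. The median basal percentile was 92.7 without division by length and 81.4 with exon length. With 1 library left out, the log2 difference ranged from 0.45 to 0.66 for VCL per ZYX, -0.54 to -0.40 for TPM1 per TPM4, 0.27 to 0.36 for MYH9 per MYL9, -0.51 to -0.34 for FLNA per MYH9 and -0.085 to -0.0071 for ACTB per ACTG1.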
